A study of Saccharomyces cerevisiae with 12 samples.

Results

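Libraries made after 6 h in concanamycin A were set against libraries made after 3 h, to ask which transcripts of the budding yeast Saccharomyces cerevisiae began to change late in the exposure and which moved further than they already had. Every library labelled 6 h and every library labelled 3 h was used, which is 6 of the 12 libraries of the series, over all features of the count table, and no 0 h library stands in the contrast. All libraries came from wild-type BY4741, a laboratory haploid with the a mating type that lacks HIS3 function, LEU2, MET17 and URA3, grown exponentially in YPD, a rich glucose medium. The 6 h group had 500 nM concanamycin A for 6 h and the 3 h group had the same dose for 3 h. The libraries of 1 h and 0 h, 3 of each, entered the fit to estimate the spread and served to say where a transcript stood before 3 h. Libraries from cultures kept for the same hours without the compound are not analysed here, so hours in the compound and hours in culture cannot be told apart. Whether the 3 libraries of a time were grown as separate cultures is not given in the labels, so p-values reflect the spread among these libraries, part or all of which may be technical.

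Concanamycin A blocks the vacuolar proton pump (V-ATPase), the enzyme that moves protons into the vacuole and other organelles of the secretory and endocytic routes. The acid vacuole of yeast stores amino acids, iron, phosphate and calcium, digests proteins and lipids delivered by autophagy and endocytosis, and lets cells draw on its reserves. Iron enters through reductive transporters at the plasma membrane and through siderophore carriers, and both sets of genes answer to the iron regulators Aft1 and Aft2. Sterol synthesis needs oxygen, heme and iron, and the regulator Upc2 raises genes of sterol synthesis, sterol uptake and the anaerobic cell wall when sterols run short.

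The 6 libraries held 8508894 to 10195012 counts. The deleted genes were as the genotype gives them. MET17 was at 0 counts in all 6 libraries, and LEU2 had 0 to 3 and URA3 1 to 3 counts. HIS3, of which the strain lacks only a part, had 363 to 802. STE2, the alpha-factor receptor gene that a cells use, had 1496 to 2651 counts, while the alpha-factor genes MF(ALPHA)1 and MF(ALPHA)2 had 0 to 1 and 0 to 3. Among the alpha-specific transcripts, STE3 had 41 to 92 counts and SAG1 162 to 232. Of the other a-specific genes, STE6 had 1702 to 2466 counts, BAR1 547 to 745 and MFA2 475 to 1035. AGA2 had 125 to 259, MFA1 130 to 211 and ASG7 37 to 52. The ranges of AGA2 and MFA1 thus overlapped that of SAG1, and the range of ASG7 overlapped that of STE3. In the 6 h group replicate 1 stood furthest from the others (chi-square per degree of freedom 15.8 and 21.9 against replicates 2 and 3, which had 3.26 between them), and in the 0 h group replicate 3 did (32.2 and 22.6, against 4.54 between replicates 1 and 2). Counts of 3 or more that moved by over 1.5 times without either of these libraries are given with and without it. Smaller counts that moved are not all given, such as the 1 rise of the phosphate regulon, which was 2 without 6 h replicate 1.

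Of 5615 features with enough counts to test, 1177 rose between 3 h and 6 h, which is 21.0% of those tested, and 1219 fell, which is 21.7% (edgeR's quasi-likelihood test, Benjamini-Hochberg adjusted p under 0.05). Rises were the larger changes: 144 features rose by at least 2-fold (2.56%), and 12 fell by at least 2-fold (0.214%). The counts of rises and falls in each gene list below can be read beside the shares of 21.0% and 21.7%. Across all tested features the median change was 0.02 on the log2 scale. All 3 libraries of 6 h lay above all 3 of 3 h for 29.8% of the features, and below them for 29.3%. A higher level here means a larger share of the counts after scaling, and in a culture more transcript per cell cannot be told apart from more cells that make it.

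**Figure D1:**
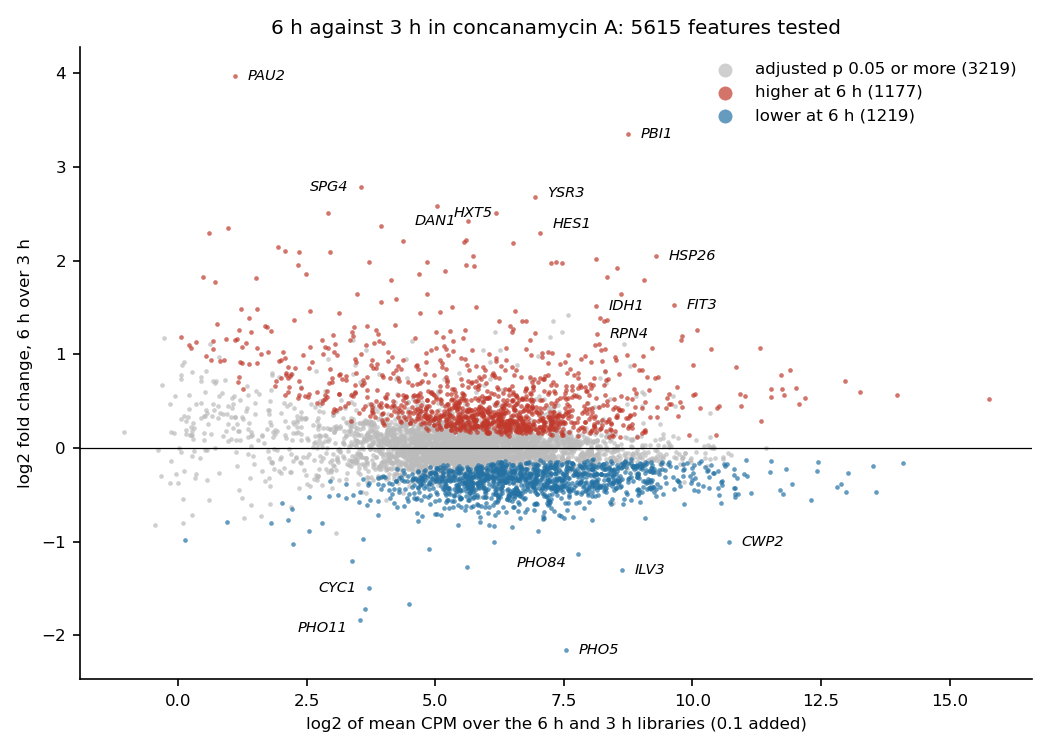
Log2 fold change of 6 h over 3 h against the log2 of the mean level in CPM (counts scaled to a common library size) for the 5615 features tested, 3 libraries per time, with red for the 1177 that rose and blue for the 1219 that fell. PAU2, a gene of few counts, lies highest at 3.98 and PBI1 next at 3.36, and PHO5 lies lowest at -2.16.

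The changes were sorted by what the same feature had done between 0 h and 3 h, when 26.3% of the tested features rose and 24.5% fell. Late starts, which had not passed the test at 3 h against 0 h, numbered 563 rises (10.0% of tested features) and 459 falls (8.17%). The name says nothing of 1 h, when 157 of these rises and 197 of these falls were past the test against 0 h. Changes that deepened, already past the test in the same direction at 3 h, numbered 390 rises (6.95%) and 503 falls (8.96%). Features that turned back numbered 224 rises after a fall (3.99%) and 257 falls after a rise (4.58%). The median log2 change of the deepened rises was 0.41 at 6 h against 3 h, beside 0.51 at 3 h against 0 h, and that of the deepened falls was -0.33 beside -0.40. At 6 h, 148 of the 224 features that had turned up again and 179 of the 257 that had turned down again were not past the test against 0 h, a comparison in which 33.0% of all tested features were higher at 6 h and 28.9% lower. Both steps, from 0 to 3 h and from 3 to 6 h, use the same 3 h libraries, so a feature that happened to be low at 3 h would look lower against 0 h and higher at 6 h. These counts are descriptions for that reason, and they depend on scaling: with library totals alone the late starts were 287 rises and 321 falls and the features turned down again were 812. Without 0 h replicate 3 the features turned up again were 404, against 224 with it. Without 6 h replicate 1 the late rises were 366, against 563 with it.

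Many genes of sterol supply and of the anaerobic cell wall rose between 3 h and 6 h. Of 10 mannoprotein genes of anaerobic growth, 8 rose and none fell, with a median log2 fold change of 1.17. Of 18 genes of sterol uptake and storage, 10 rose and 1 fell (median 0.26), and of 26 genes of sterol synthesis, 17 rose and 1 fell (median 0.28). Each share of rises can be read against the 21.0% of all tested features. The sterol synthesis genes had deepened in 14 of their 18 changes, and their largest rise was smaller than 2-fold. By contrast, 7 of the mannoprotein genes and 5 of the uptake and storage genes rose by 2-fold or more. The uptake and storage list includes PBI1, whose function is little known and whose rise (log2 3.36) was its largest. The lists were chosen with earlier results of these data known, so these counts are descriptions.

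The promoters of DAN1 and PBI1 are shown, chosen because they carry words tied to sterol and anaerobic control. DAN1 lies on chromosome X and PBI1 on chromosome XVI, and the stretches are those from 300 to 101 bases before the start codon on build R64 (chrX:709808-710007, minus strand, and chrXVI:28265-28464, minus strand). Capitals mark the sterol regulatory element TCGTATA and the AR1 element TCGTTCAG or TCGTTTAG, searched on both strands.
DAN1: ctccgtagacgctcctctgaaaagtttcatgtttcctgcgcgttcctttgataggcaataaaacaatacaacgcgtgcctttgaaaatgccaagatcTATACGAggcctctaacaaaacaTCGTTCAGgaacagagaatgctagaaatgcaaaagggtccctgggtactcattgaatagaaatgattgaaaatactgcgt
PBI1: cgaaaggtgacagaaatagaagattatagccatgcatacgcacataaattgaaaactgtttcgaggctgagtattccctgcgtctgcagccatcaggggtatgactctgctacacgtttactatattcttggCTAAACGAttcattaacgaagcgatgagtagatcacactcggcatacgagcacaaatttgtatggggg
DAN1 held the sterol regulatory element from 203 to 197 bases before the start codon and AR1 from 180 to 173, and PBI1 held AR1 from 168 to 161. TCGTATA stood within 300 bases of 4.6% of all 5765 promoters read, of 4 of the 10 mannoprotein genes, of 6 of the 26 sterol synthesis genes and of 0 of the 18 uptake and storage genes. AR1 stood in 1.89% of all promoters, in 4 of 10, 9 of 26 and 3 of 18 of the same lists. A match is a description of the letters and not of binding.

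PBI1, a gene of little-known function, had the largest rise among features at 10 CPM or more. It had 997, 733 and 616 CPM in the 6 h libraries, against 102, 72.2 and 55.6 CPM in the 3 h libraries, a rise of 10.3-fold (log2 3.36 ± 0.24 SE, adjusted p = 6.2e-06, edgeR). The 3 libraries of each time were spread widely but the times did not overlap, and PBI1 had already risen by 2.09 on the log2 scale at 3 h against 0 h. HES1, a member of the oxysterol-binding protein family, had 217, 214 and 225 CPM at 6 h, against 45.3, 44.1 and 43.8 CPM at 3 h (log2 2.30 ± 0.09, adjusted p = 2.0e-09, edgeR). SET4, a SET-domain protein linked to hypoxic and sterol genes, had 77.0, 81.5 and 79.9 CPM at 6 h, against 14.9, 15.9 and 19.9 CPM at 3 h (log2 2.23 ± 0.11, adjusted p = 2.5e-08, edgeR). In both genes the 6 h libraries lay close together and far above every 3 h library.

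AUS1, the ABC transporter that takes up sterol when cells grow without oxygen, had 132, 121 and 127 CPM at 6 h, against 55.6, 55.5 and 49.5 CPM at 3 h. Its log2 change was 1.24 ± 0.07 between 3 h and 6 h and 0.22 between 0 h and 3 h, so it gained more after 3 h than before. In the sterol pathway itself, ERG28, a scaffold protein of the C-4 demethylation enzymes, had 170, 161 and 163 CPM at 6 h, against 103, 94.5 and 96.2 CPM at 3 h, and ERG26, the C-3 sterol dehydrogenase of that complex, had 281, 287 and 274 CPM, against 180, 176 and 178 CPM. ERG6 and ERG2, late enzymes of the pathway, each rose by 0.54 on the log2 scale. The 6 h libraries of these 4 genes lay above all 3 h libraries, with rises of 1.45-fold to 1.69-fold.

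DAN1, a cell wall mannoprotein of anaerobic cells, had 85.9, 82.7 and 84.1 CPM at 6 h, against 16.6, 16.5 and 14.2 CPM at 3 h (log2 2.42 ± 0.11, adjusted p = 5.7e-09, edgeR). TIR3, of the same kind, had 55.8 to 57.9 CPM at 6 h, against 14.4 to 16.7 CPM at 3 h. TIR1 had 399, 394 and 400 CPM at 6 h, against 192, 185 and 174 CPM at 3 h. None of these 3 genes overlapped between the times, and their libraries of a time differed little. DAN1 and TIR1 had risen by 2.03 and 2.33 on the log2 scale at 3 h against 0 h, and TIR3 by 0.58. PAU5, a seripauperin gene, started late: it averaged 12.6 ± 2.46 CPM at 6 h and 2.21 ± 0.295 CPM at 3 h (SD, n = 3 each), with a log2 change of 2.51 ± 0.23 after 0.43, not past the test, at 3 h against 0 h. PAU7 is nearly identical to PAU5, and PAU24 and PAU2 to PAU12, and how reads shared between copies were counted is not given in the sources used here, so the values of these genes are uncertain. PAU2 rose most of all tested features (log2 3.98 ± 0.35) from levels below 1 CPM at 3 h, and its value without 3 h replicate 2 was 4.61.

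CWP2, the wall mannoprotein of aerobic cells, moved the other way. It had 1018, 1166 and 1154 CPM at 6 h, against 2249, 2235 and 2187 CPM at 3 h, a fall of 1.00 on the log2 scale (SE 0.05), and its means over 0, 1, 3 and 6 h were 2026, 2529, 2223 and 1112 CPM. At 1 h it was above 0 h (log2 0.32, adjusted p = 3.0e-04, edgeR), and every 3 h library already lay below every 1 h library. Among 14 genes under the heme-dependent repressor Rox1, 6 rose and 2 fell (median 0.16). The cytochrome c isoforms parted: CYC7, the hypoxic form, had 19.8, 18.8 and 15.5 CPM at 6 h, against 7.61, 6.47 and 7.70 CPM at 3 h, while CYC1, the aerobic form, had 5.04, 8.22 and 7.36 CPM, against 17.9, 18.9 and 20.9 CPM. CYC1 had fallen by 1.31 before 3 h and fell by a further 1.49 ± 0.14 after it, and CYC7, which started late, was not past the test without 3 h replicate 2 (adjusted p = 0.054, edgeR). Of the 8 heme synthesis genes, 4 fell and 1 rose. HEM3, porphobilinogen deaminase, had 59.6, 69.4 and 60.5 CPM at 6 h, against 80.0, 88.7 and 83.1 CPM at 3 h.

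Iron uptake genes kept rising, and the siderophore set by the most. Of 7 genes of siderophore retention and transport, 5 rose and none fell (median log2 fold change 0.83), and all 5 had already risen at 3 h. Of 15 genes of reductive uptake, 9 rose and none fell (median 0.25), and 8 of the 9 had risen before. The promoter of FIT1, the siderophore gene with the largest late rise, is shown (chrIV:1505001-1505200, minus strand) with capitals for the Aft site TGCACCC on either strand.
FIT1: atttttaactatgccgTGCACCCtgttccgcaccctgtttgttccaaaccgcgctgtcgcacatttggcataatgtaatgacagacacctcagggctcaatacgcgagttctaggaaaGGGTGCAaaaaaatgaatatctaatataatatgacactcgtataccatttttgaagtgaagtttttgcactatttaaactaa
The word began 284 and 182 bases before the start codon. It stood within 300 bases of 6 of the 7 siderophore genes, 8 of the 15 reductive uptake genes and 1.3% of all promoters.

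FIT1, a mannoprotein that holds siderophores in the wall, had 90.0, 83.6 and 85.1 CPM at 6 h, against 21.0, 20.7 and 20.7 CPM at 3 h (log2 2.05 ± 0.10, adjusted p = 1.8e-08, edgeR). FIT3, its paralogue, had 1241, 1219 and 1116 CPM at 6 h, against 444, 406 and 389 CPM at 3 h. ARN2, a siderophore carrier, had 468, 412 and 395 CPM at 6 h, against 173, 166 and 150 CPM at 3 h. For all 3 genes the times were far apart compared with the libraries within a time. FIT2 gained 0.83 after 3.08 at 3 h against 0 h, whereas FIT1 gained 2.05 after 1.99, so the gains after 3 h were of different size beside the earlier ones. Among the reductases, FRE5 had 46.4, 40.4 and 49.5 CPM at 6 h, against 16.0, 20.4 and 21.3 CPM at 3 h, and HMX1, the heme oxygenase that frees iron from heme, had 168, 145 and 120 CPM, against 96.7, 85.9 and 74.3 CPM.

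Many genes that build iron-sulfur clusters went down. Of 25 genes of iron-sulfur cluster assembly, 14 fell and 3 rose (median -0.19, against 21.7% of all tested features that fell). The falls numbered 10 to 13 when any of the 6 libraries of 6 h and 3 h was left out. The ferredoxin YAH1 had 15.3, 22.5 and 22.8 CPM at 6 h, against 32.4, 33.3 and 34.5 CPM at 3 h, and the monothiol glutaredoxin GRX5 had 44.9, 46.1 and 45.4 CPM, against 71.2, 65.2 and 70.8 CPM. The scaffold ISU1 was higher, with 239, 223 and 215 CPM at 6 h, against 149, 145 and 147 CPM at 3 h. In all 3 genes the times were apart. Of 17 tested genes of the iron-sparing list, 7 rose and 3 fell, and LSO1, a small protein of iron-poor cells, had 9.68, 12.2 and 11.7 CPM at 6 h, against 4.24, 5.41 and 5.84 CPM at 3 h. Of 12 copper genes 4 rose and 3 fell, and of 17 zinc genes 6 rose and 3 fell. In these small lists 33.3% and 35.3% rose and 25.0% and 17.6% fell, beside 21.0% and 21.7% of all tested features.

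**Figure D2:**
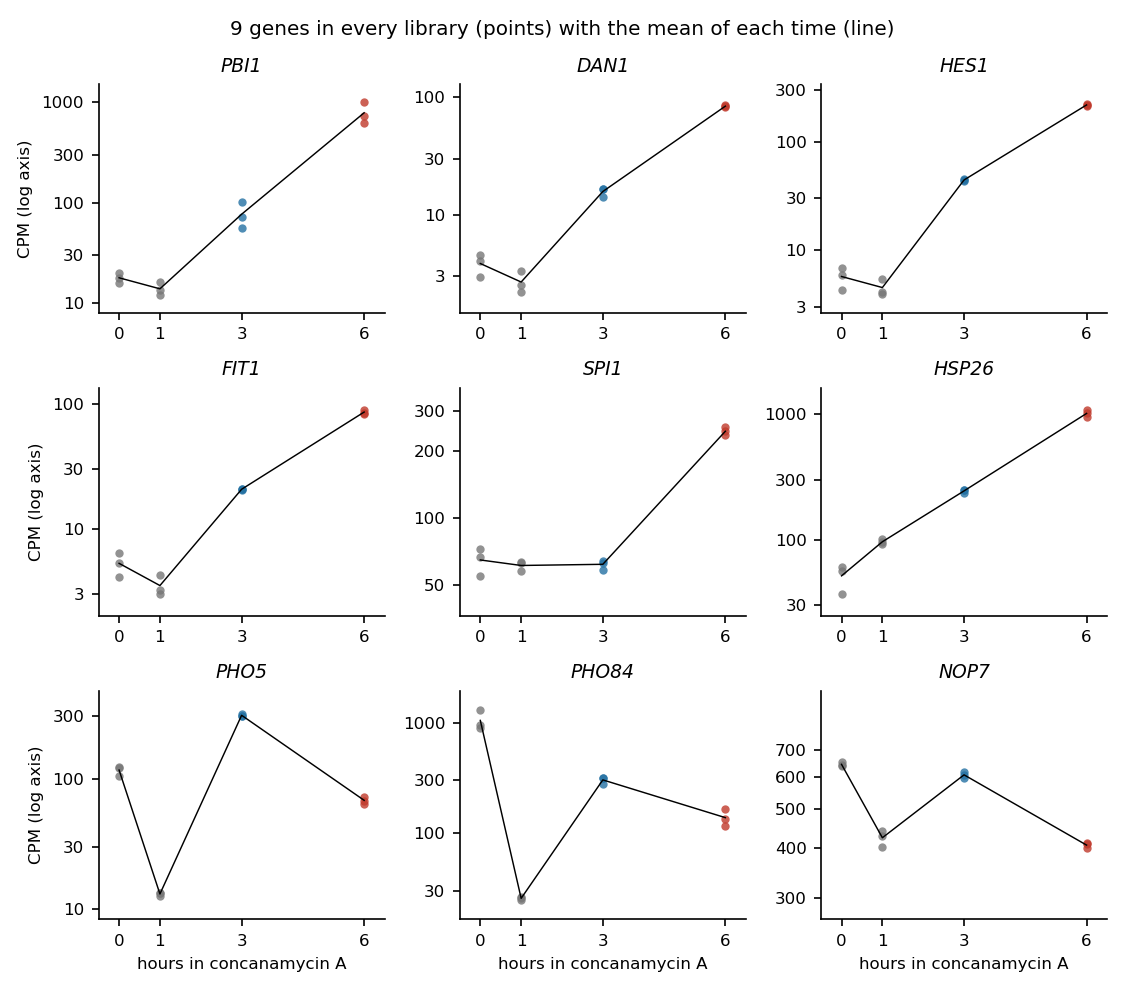
Levels of 9 genes in CPM, on log axes, in every library at 0, 1, 3 and 6 h, with lines through the mean of each time (n = 3) and 6 h in red and 3 h in blue. DAN1 reached 82.7 to 85.9 CPM at 6 h, SPI1 stayed near its 0 h level until 3 h, and PHO5 and NOP7 were lower at 6 h than at 3 h.

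The phosphate regulon held the largest falls. Of its 20 genes, 12 fell and 1 rose, with a median log2 fold change of -0.52, and 6 of the 12 features of the whole table that fell by at least 2-fold belong to it. At 1 h against 0 h the median of the list was -1.38 and at 3 h against 0 h it was -0.30. The median had thus climbed part of the way back by 3 h before it fell again. At 3 h against 0 h, 9 genes were lower and 5 higher. Of the changes after 3 h, 9 had deepened, 2 had turned back and 2 were late starts. The promoters of PHO5, the secreted acid phosphatase, and SPL2, an inhibitor of low-affinity phosphate uptake, are shown with the Pho4 word CACGTG or CACGTT in capitals (chrII:431052-431251, minus strand, and chrVIII:375201-375400, minus strand).
PHO5: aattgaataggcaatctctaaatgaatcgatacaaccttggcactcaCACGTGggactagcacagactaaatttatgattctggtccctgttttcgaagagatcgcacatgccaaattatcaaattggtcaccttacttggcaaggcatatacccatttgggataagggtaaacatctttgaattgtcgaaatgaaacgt
SPL2: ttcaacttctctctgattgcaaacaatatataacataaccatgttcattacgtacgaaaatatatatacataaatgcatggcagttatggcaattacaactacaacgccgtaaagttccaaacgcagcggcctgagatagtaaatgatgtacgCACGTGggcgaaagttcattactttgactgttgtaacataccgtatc
The word began 253 bases before the start codon of PHO5 and 147 bases before that of SPL2. Of the 20 promoters of the list, 15 held it, beside 12.5% of all promoters.

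PHO5 had 64.4, 72.9 and 67.3 CPM at 6 h, against 302, 301 and 312 CPM at 3 h, a log2 change of -2.16 ± 0.07 (adjusted p = 3.2e-10, edgeR). Its 6 h libraries lay at 64.4 to 72.9 CPM, far below the lowest 3 h library. The gene's means were 116, 13.1, 305 and 68.2 CPM at 0, 1, 3 and 6 h, so that it had risen above its starting level by 3 h and lay below that level at 6 h (log2 -0.77 against 0 h). SPL2 had 6.15, 6.68 and 4.33 CPM at 6 h, against 19.1, 17.2 and 20.3 CPM at 3 h. PHO84, the high-affinity phosphate transporter, had 115, 134 and 165 CPM at 6 h, against 276, 315 and 318 CPM at 3 h, and its means over 0, 1, 3 and 6 h were 1046, 25.7, 303 and 138 CPM. PHM6, a vacuolar protein of the regulon, fell by 1.20 on the log2 scale. All these genes were lower in every 6 h library than in any 3 h library. PHO11 and PHO12, near-identical acid phosphatases whose reads cannot be parted with certainty, fell by 1.83 and 1.66 on the log2 scale.

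Stress genes rose late in large number. Of 34 genes of the environmental stress response, 21 rose and none fell, with a median log2 fold change of 1.00, while the median at 3 h against 0 h was -0.33 with 6 higher and 9 lower. Of the 21, 13 were late starts, 6 had deepened and 2 had turned back, but without 0 h replicate 3, in which these genes were low, 30 rose and the same classes held 9, 6 and 15. Without 6 h replicate 1 the late starts were 8, of 15 that rose, and without 3 h replicate 3 they were 7, of 14 that rose. Within 6 h, replicate 1 was the highest: the median of the list against the 3 h mean was 1.24, 0.90 and 0.80 in replicates 1, 2 and 3. SPI1, a wall protein of weak-acid stress, is shown (chrV:468070-468269, plus strand) with the stress response element CCCCT of Msn2 and Msn4 in capitals on either strand.
SPI1: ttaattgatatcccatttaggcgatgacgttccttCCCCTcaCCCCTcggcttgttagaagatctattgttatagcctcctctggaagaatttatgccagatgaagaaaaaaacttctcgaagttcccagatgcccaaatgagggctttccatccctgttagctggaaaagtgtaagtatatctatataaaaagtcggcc
The word began 265 and 258 bases before the start codon. It stood in 27 of the 34 promoters of the list and in 22.4% of all promoters.

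SPI1 had 255, 244 and 234 CPM at 6 h, against 58.8, 63.1 and 64.3 CPM at 3 h (log2 1.98 ± 0.09, adjusted p = 5.7e-09, edgeR), and its means at 0 and 1 h were 64.9 and 61.3 CPM. The level was flat until 3 h and 3.93-fold higher at 6 h. HSP12, a membrane-bound stress protein, had 558, 492 and 473 CPM at 6 h, against 135, 145 and 149 CPM at 3 h, and ALD3, an aldehyde dehydrogenase, had 58.1, 37.2 and 35.2 CPM, against 15.3, 14.2 and 12.3 CPM. SPG4, needed for survival in stationary phase, had 27.0, 18.2 and 16.3 CPM at 6 h, against 2.93, 2.44 and 3.45 CPM at 3 h. In ALD3 and SPG4 replicate 1 was the high library of the 6 h group, and no 6 h library reached down to the 3 h ones. TMA10, also of this kind, had 759, 532 and 464 CPM at 6 h, against 185, 160 and 119 CPM at 3 h, and was not past the test without 6 h replicate 1, 3 h replicate 2 or 3 h replicate 3 (adjusted p = 0.057, 0.053 and 0.066, edgeR).

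Of 26 genes of cytosolic chaperones, 15 rose and 7 fell (median 0.62), and 7 rose by at least 2-fold. HSP26, a small heat shock protein, had 1080, 1013 and 941 CPM at 6 h, against 235, 250 and 249 CPM at 3 h (log2 2.05 ± 0.13, adjusted p = 7.7e-07, edgeR). SSA3, an Hsp70 of stressed cells, had 288, 291 and 272 CPM at 6 h, against 64.3, 75.8 and 75.2 CPM at 3 h. BTN2, which gathers misfolded proteins, had 445, 432 and 460 CPM at 6 h, against 87.2, 110 and 134 CPM at 3 h. HSP26 and SSA3 had risen before 3 h by 2.24 and 1.45, whereas BTN2 had fallen, and all 3 were apart between the times. RPN4, the regulator of proteasome genes, had 426, 380 and 379 CPM at 6 h, against 164, 170 and 174 CPM at 3 h. Of the 37 genes of the proteasome list, which includes RPN4, 5 rose and 1 fell, a share of rises below the 21.0% of all features. Of 20 genes of the unfolded protein response 5 rose and 3 fell, and neither count was stable. The rises were 1 without 6 h replicate 1 or 3 h replicate 2, 2 without 3 h replicate 3, and 3 with RLE size factors or library totals, and the falls were 0 without 6 h replicate 2 or 3 h replicate 3 and 1 without 3 h replicate 1 or 3 h replicate 2. Of 25 targets of the oxidative stress regulator Yap1, 6 rose and 11 fell, and TSA2, a peroxiredoxin, had the largest rise of these, by 1.36 on the log2 scale.

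Some of the genes that glucose represses, and of those of reserve carbohydrates, rose between 3 h and 6 h as well. Of 30 tested glucose-repressed genes, 13 rose and 1 fell (median 0.74), and 7 rose without 6 h replicate 1 or without 3 h replicate 3. When 10 CPM was asked for, which left 19 of the genes, 7 rose. The median of the list against the 3 h mean was 0.93, 0.55 and 0.29 in 6 h replicates 1, 2 and 3. ADR1, an activator of these genes, had 175, 134 and 143 CPM at 6 h, against 37.5, 31.6 and 30.1 CPM at 3 h, having fallen by 1.06 on the log2 scale before. HXT5, a hexose transporter of slow growth, averaged 56.0 ± 11.4 CPM at 6 h and 9.42 ± 1.81 CPM at 3 h (SD, n = 3 each; log2 2.58 ± 0.21, adjusted p = 3.5e-06, edgeR). In both genes 6 h replicate 1 was the highest library and the times were apart. Of 18 tested hexose transport genes 8 rose and 1 fell, and of 19 genes of trehalose and glycogen 7 rose and none fell, or 4 without 6 h replicate 1 and 12 without 0 h replicate 3. TKL2, the minor transketolase, rose by 2.37 ± 0.19 on the log2 scale, with 31.1, 23.9 and 22.1 CPM at 6 h, against 4.89, 5.62 and 4.42 CPM at 3 h.

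Glycolysis moved the other way: 14 of 17 genes fell and 2 rose, with a median of -0.25, and all 14 falls deepened an earlier one. PGK1, phosphoglycerate kinase, had 4314, 4087 and 3886 CPM at 6 h, against 6147, 6286 and 5648 CPM at 3 h, and ENO2, enolase, had 6512, 7035 and 6906 CPM, against 9375, 9836 and 9104 CPM. TDH1, the isozyme of glyceraldehyde-3-phosphate dehydrogenase made by non-growing cells, had 920, 761 and 719 CPM at 6 h, against 387, 405 and 353 CPM at 3 h. TDH1 rose 2.10-fold, while its paralogue TDH3, whose reads may be shared with TDH2, fell by 0.47 on the log2 scale. Of 19 genes of the tricarboxylic acid cycle, 6 rose and 3 fell, or 5 fell in a fit of the 6 libraries alone. The subunits of isocitrate dehydrogenase led: IDH1 had 428, 411 and 401 CPM at 6 h, against 148, 140 and 143 CPM at 3 h (log2 1.52 ± 0.05, adjusted p = 3.2e-10, edgeR), and IDH2 had 480, 480 and 436 CPM, against 173, 187 and 179 CPM. Both had fallen before 3 h, by 0.29 and 0.57, and stood above 0 h at 6 h, by 1.23 and 0.81. Aconitase, ACO1, rose by 0.80 but stayed 1.46 lower than at 0 h on the log2 scale. Of 31 nuclear genes of the respiratory chain 7 fell and none rose, a share of falls near the 21.7% of all tested features, and 3 or 4 fell when 6 h replicate 2, 6 h replicate 3 or any of the 3 h libraries was left out.

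Most genes that assemble ribosomes fell after 3 h. Of 78 ribosome biogenesis genes, 61 fell and none rose, with a median of -0.39 where the median at 3 h against 0 h had been 0.07. Of the 61, 37 were late starts, 12 had deepened and 12 had turned back, but the split was not stable: without 0 h replicate 3 the classes held 28, 14 and 28, and with library totals alone 12, 1 and 49. Of 20 genes of RNA polymerases I and III 15 fell and none rose (median -0.37), and of 31 translation factors 28 fell and none rose (median -0.33). The promoters of NOP7 and BRX1, assembly factors of the large subunit, are shown since they hold both words common to this class (chrVII:695117-695316, plus strand, and chrXV:186824-187023, minus strand). These genes were chosen after their values were seen, because both words lie in the printed stretch. Capitals mark PAC, GCGATGAG, and RRPE, AAAAATTTT, on either strand.
NOP7: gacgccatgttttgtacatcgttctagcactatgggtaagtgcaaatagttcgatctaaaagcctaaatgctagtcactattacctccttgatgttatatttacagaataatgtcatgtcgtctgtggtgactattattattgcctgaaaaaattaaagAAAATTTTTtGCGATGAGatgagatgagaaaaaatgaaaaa
BRX1: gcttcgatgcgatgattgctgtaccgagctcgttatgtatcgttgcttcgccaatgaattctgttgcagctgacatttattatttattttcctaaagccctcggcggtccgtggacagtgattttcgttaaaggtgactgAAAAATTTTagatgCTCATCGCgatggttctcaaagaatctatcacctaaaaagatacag
In NOP7 the RRPE word ran from 141 to 133 bases before the start codon and PAC from 131 to 124, and in BRX1 RRPE ran from 160 to 152 and PAC from 146 to 139. PAC stood within 300 bases of 47 of the 78 ribosome biogenesis genes and 7 of the 20 polymerase genes, beside 4.22% of all promoters. RRPE stood in 51 of 78 and 12 of 20, beside 7.6% of all promoters.

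NOP7 had 398, 408 and 410 CPM at 6 h, against 607, 597 and 615 CPM at 3 h (log2 -0.58 ± 0.04, adjusted p = 1.3e-06, edgeR), and its means at 0 and 1 h were 644 and 423 CPM. BRX1 had 145, 152 and 146 CPM at 6 h, against 225, 219 and 222 CPM at 3 h. RPA12, a subunit of RNA polymerase I, had 43.0, 53.9 and 51.5 CPM at 6 h, against 75.6, 85.4 and 79.6 CPM at 3 h. The falls were of modest size, and in each gene all 6 h libraries lay below all 3 h ones. TIF11, the initiation factor eIF1A, had 261, 285 and 273 CPM at 6 h, against 411, 412 and 413 CPM at 3 h, and YEF3, the elongation factor 3 of fungi, had 6057, 6231 and 6140 CPM, against 8179, 8456 and 7967 CPM.

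Ribosomal protein genes behaved differently from the genes that assemble ribosomes. Their fall came before 3 h, with medians of -1.15 for the large subunit and -1.26 for the small subunit at 3 h against 0 h, and little was added after it, with medians of -0.14 for each. Of 81 large-subunit genes 29 fell and 3 rose, and of 56 small-subunit genes 17 fell and none rose. These counts depended on individual libraries: the falls of the large subunit numbered 16, 17 and 15 without 6 h replicate 1, 3 h replicate 1 or 3 h replicate 2, and those of the small subunit 8 to 11 when 6 h replicate 1 or any of the 3 h libraries was left out, 28 without 0 h replicate 3 and 33 in a fit of the 6 libraries alone. RPL18B had 90.4, 96.7 and 95.7 CPM at 6 h, against 144, 150 and 153 CPM at 3 h. RPL7B went up, with 69.9, 68.6 and 67.1 CPM at 6 h, against 41.8, 43.0 and 40.1 CPM at 3 h, after a fall of 2.10 before 3 h, and its reading frame holds snR59 on the same strand. Mitochondrial ribosomal proteins gave 24 falls and 1 rise among 54 genes (median -0.20), and 14, 15 and 10 falls without 6 h replicate 1, 3 h replicate 2 or 3 h replicate 3.

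**Figure D3:**
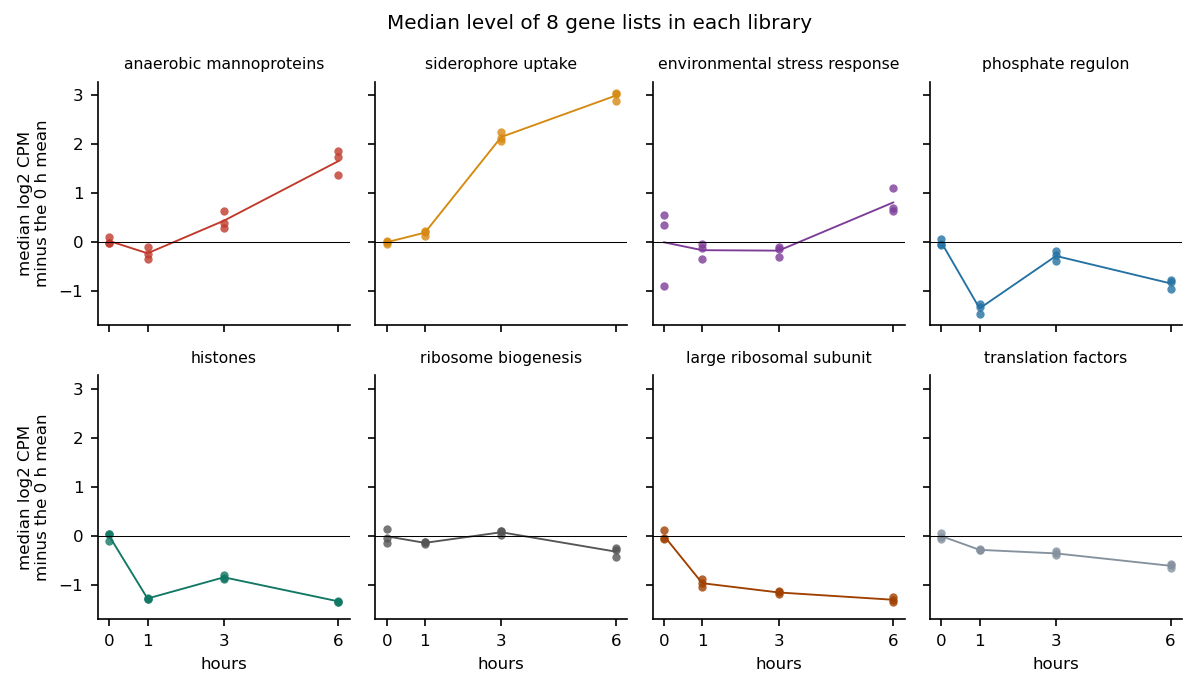
Median over the tested members of 8 gene lists of the log2 CPM minus its 0 h mean, in each library at 0, 1, 3 and 6 h, with lines through the mean of the 3 libraries. In every 6 h library the mannoprotein, siderophore and stress lists lay above the 3 h libraries and the other lists below them, and the 0 h libraries of the stress list were spread from -0.89 to 0.55.

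Many genes of amino acid and purine synthesis fell further. Of 41 amino acid synthesis genes under Gcn4, 24 fell and 2 rose (median -0.31), and 20 of these changes had deepened. Without 0 h replicate 3, or in a fit of the 6 libraries alone, 5 rose. ILV3, the iron-sulfur enzyme dihydroxyacid dehydratase of the branched-chain pathway, had 183, 239 and 265 CPM at 6 h, against 517, 560 and 621 CPM at 3 h (log2 -1.31 ± 0.11, adjusted p = 4.1e-06, edgeR). LEU1, the iron-sulfur enzyme of leucine synthesis, had 77.3, 95.3 and 98.4 CPM at 6 h, against 152, 169 and 180 CPM at 3 h, after a fall of 3.23 before 3 h. LEU9, the minor isopropylmalate synthase, had 40.0, 47.2 and 52.7 CPM at 6 h, against 87.6, 99.3 and 94.0 CPM at 3 h. These 3 genes of the branched-chain pathway were lowest in 6 h replicate 1 and apart between the times. Of 20 purine synthesis genes 13 fell and none rose (median -0.36), each deepening an earlier fall. Sulfur amino acid genes were mixed, with 7 rises and 11 falls among 30, and 4 rises without 6 h replicate 1 or 3 h replicate 3. JLP1, a sulfonate dioxygenase, had 12.7, 10.7 and 9.74 CPM at 6 h, against 5.98, 4.24 and 4.25 CPM at 3 h, while SAM1, S-adenosylmethionine synthetase, had 386, 417 and 407 CPM, against 692, 675 and 660 CPM. Of 27 genes under nitrogen catabolite repression 10 rose and 2 fell, and PUT1, proline oxidase, had 54.7, 48.4 and 45.7 CPM at 6 h, against 24.9, 22.5 and 24.2 CPM at 3 h.

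At the vacuole, the pump's own genes and the genes of degradation went in opposite directions. Of 23 genes of the proton pump and its assembly, 13 fell and 1 rose (median -0.21). VMA3, the proteolipid subunit c, had 499, 511 and 522 CPM at 6 h, against 659, 648 and 638 CPM at 3 h, and VMA5, subunit C, had 293, 311 and 320 CPM, against 402, 404 and 384 CPM. Of 17 vacuolar hydrolase genes 11 rose and 1 fell (median 0.37). AMS1, the alpha-mannosidase carried to the vacuole by a selective form of autophagy, had 313, 236 and 226 CPM at 6 h, against 67.5, 66.2 and 62.3 CPM at 3 h (log2 1.98 ± 0.17, adjusted p = 7.7e-06, edgeR). PRB1, proteinase B, had 1867, 1769 and 1694 CPM at 6 h, against 893, 841 and 828 CPM at 3 h. Both hydrolase genes had risen before 3 h, and their 6 h libraries lay far above the 3 h ones. Of 32 autophagy genes 21 rose and none fell (median 0.38), or 12 without 6 h replicate 1 or without 3 h replicate 3. ATG8, the ubiquitin-like protein of the autophagosome, had 88.7, 78.0 and 74.6 CPM at 6 h, against 46.8, 42.7 and 45.7 CPM at 3 h, having not passed the test before 3 h.

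Targets of calcineurin, the calcium-activated phosphatase that acts through Crz1, rose in 15 of 21 tested genes and fell in 1 (median 0.47, after -0.08 at 3 h against 0 h). PMC1, the vacuolar calcium pump, had 416, 352 and 366 CPM at 6 h, against 188, 173 and 168 CPM at 3 h, and RCN1, an inhibitor of calcineurin that it induces, had 44.4, 47.0 and 39.0 CPM, against 21.0, 19.8 and 21.5 CPM. Both had fallen before 3 h, by 0.36 and 0.89, and every 6 h library lay above all 3 h ones. GSC2, a glucan synthase subunit of stressed cells, had 1341, 1076 and 1207 CPM at 6 h, against 596, 537 and 497 CPM at 3 h. Of 22 genes of the cell wall integrity pathway 11 rose and 3 fell (median 0.27), and 5 or 6 fell in a fit of the 6 libraries alone, with DESeq2 or without 0 h replicate 3. PST1, a wall protein of that pathway, had 816, 643 and 631 CPM at 6 h, against 368, 350 and 338 CPM at 3 h. Of 15 genes of the pleiotropic drug response 6 rose and 3 fell, and RTA1, a membrane protein of the lipid-translocating family, had 33.9, 23.4 and 24.0 CPM at 6 h, against 7.39, 7.64 and 8.32 CPM at 3 h.

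Lipid genes other than those of sterols divided. Of 20 genes of inositol and phospholipid synthesis, 10 rose and 5 fell. INO1, which makes inositol phosphate and is switched on by Ino2 and Ino4, rose most and its promoter is shown (chrX:136034-136233, minus strand) with the word CATGTG in capitals on either strand.
INO1: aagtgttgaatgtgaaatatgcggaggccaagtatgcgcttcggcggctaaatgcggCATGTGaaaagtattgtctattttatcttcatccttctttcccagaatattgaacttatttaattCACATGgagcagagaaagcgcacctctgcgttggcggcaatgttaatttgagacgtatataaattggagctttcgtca
The word began 243 and 178 bases before the start codon, and stood in 11 of the 20 promoters of the list and 7.16% of all promoters. INO1 had 84.7, 74.6 and 74.3 CPM at 6 h, against 17.1, 16.2 and 17.4 CPM at 3 h (log2 2.20 ± 0.08, adjusted p = 8.8e-10, edgeR). INO2 and INO4, the activators, rose by 0.52 and 0.57 after falls of 0.83 and 0.91 before 3 h. Of 15 fatty acid genes 7 rose and 4 fell. OLE1, the oxygen-dependent desaturase, had 4624, 4032 and 4191 CPM at 6 h, against 2570, 2540 and 2368 CPM at 3 h, and FAS2, a fatty acid synthase subunit, had 4389, 3989 and 4166 CPM, against 2801, 2741 and 2553 CPM. Both were higher in every 6 h library. Of 25 sphingolipid genes 9 rose and 9 fell, or 5 rose without 6 h replicate 1. YSR3, a phosphatase of sphingoid base phosphates, had 251, 207 and 177 CPM at 6 h, against 37.8, 33.6 and 27.9 CPM at 3 h (log2 2.68 ± 0.15, adjusted p = 2.4e-07, edgeR), the third largest rise among features at 10 CPM or more.

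Histone genes and many genes of the cell cycle fell. All 10 histone genes fell, by 0.28 to 0.77 on the log2 scale, and 8 of them deepened an earlier fall. HTB2, a histone H2B gene, had 166, 210 and 209 CPM at 6 h, against 319, 325 and 351 CPM at 3 h. Of 25 genes of G1 and S cyclins and DNA replication 12 fell and none rose (median -0.24), and of 25 mitotic and G1-exit genes 15 fell and 1 rose (median -0.33). The G1 cyclin CLN1 had 25.4, 33.0 and 35.3 CPM at 6 h, against 50.2, 54.3 and 60.6 CPM at 3 h, and was apart between the times. Of the 7 a-specific genes 4 fell and 1 rose, or 2 fell without 6 h replicate 1. MFA2, an a-factor gene, had 47.9, 55.5 and 58.1 CPM at 6 h, against 83.7, 89.7 and 91.6 CPM at 3 h, whereas the other a-factor gene MFA1 had 19.2, 21.7 and 22.8 CPM, against 14.7, 13.8 and 16.5 CPM. Both a-factor genes lay far below their 0 h level by 3 h, at -1.33 and -1.25 on the log2 scale. Of 21 pheromone response genes 5 fell and 2 rose, close to the share of falls among all features, and 2 fell without 6 h replicate 1 and 3 without 3 h replicate 3.

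Several smaller lists were mixed or rested on few genes. Of 22 meiosis genes 7 rose and 1 fell, or 2 rose when 10 CPM was asked for, which left 6 of the genes. OSW2, a spore wall gene outside that list, averaged 40.2 CPM at 6 h and 11.1 CPM at 3 h. Of 9 glycerol synthesis genes 3 rose and none fell, but 0 or 1 rose when any of the 3 h libraries, 6 h replicate 2 or 6 h replicate 3 was left out. Of 15 tested genes of plasma membrane cation transport 3 rose and 5 fell, and the 3 rises came to 0 or 1 when any of the 6 libraries was left out, and the 5 falls to 3 without 3 h replicate 1. Of 39 genes of telomere-proximal families 14 had counts enough to test, of which 10 rose and none fell, and PAU7, PAU24 and PAU2 among them have the near-identical copies named above. YMR317W, a reading frame of unknown function, had 115, 109 and 147 CPM at 6 h, against 24.2, 19.8 and 21.1 CPM at 3 h (log2 2.51 ± 0.14, adjusted p = 8.0e-08, edgeR).

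**Figure D4:**
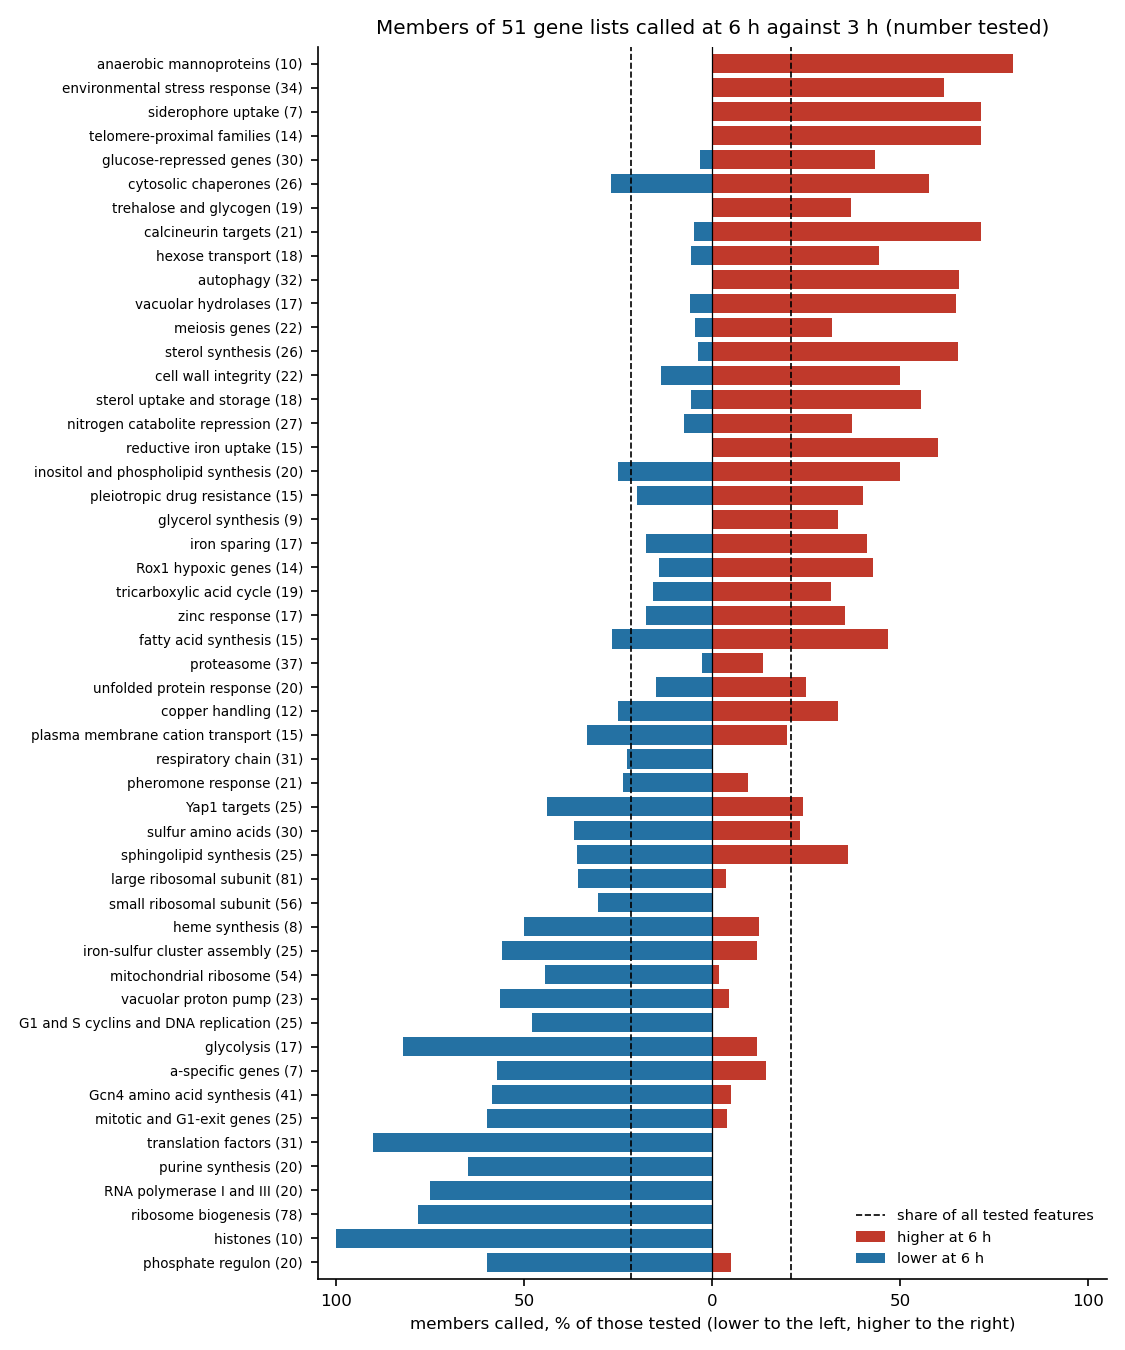
Share of the tested members of each of 51 gene lists that rose (red, to the right) or fell (blue, to the left) at 6 h against 3 h, ordered by the median log2 fold change, with the number tested in parentheses. Dashed lines mark the shares among all tested features, 21.0% risen and 21.7% fallen. Mannoprotein genes (8 of 10 risen) stand at the top and the phosphate regulon (12 of 20 fallen) at the bottom.

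The kinds of RNA took different shares of the counts at the times compared. Total RNA was sequenced after removal of rRNA, so non-coding RNAs take part of each library. Nuclear reading frames took 81.6%, 85.0% and 85.5% of the counts at 6 h, against 87.8%, 89.2% and 89.8% at 3 h, a difference of -4.93 percentage points. Small nucleolar and small nuclear RNAs took 9.48%, 7.58% and 7.05% at 6 h, against 6.09%, 5.23% and 5.08% at 3 h. SCR1, the RNA part of the particle that guides secretory proteins to the membrane, took 7.81%, 6.56% and 6.47% at 6 h, against 5.37%, 4.98% and 4.50% at 3 h. In each case the libraries of the times did not overlap, and an exact permutation test of 3 libraries against 3, two-sided, gave 0.1, the smallest p the design allows. 6 h replicate 1 had the highest share of non-coding RNA and was also the library furthest out for the stress lists. Whether the shift in RNA kinds has a part in the other results was not tested. TMM factors from nuclear reading frames alone gave 1201 rises and 1202 falls. That run cannot answer the question, because most tested features (5498) are nuclear reading frames in the main run as well.

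**Figure D5:**
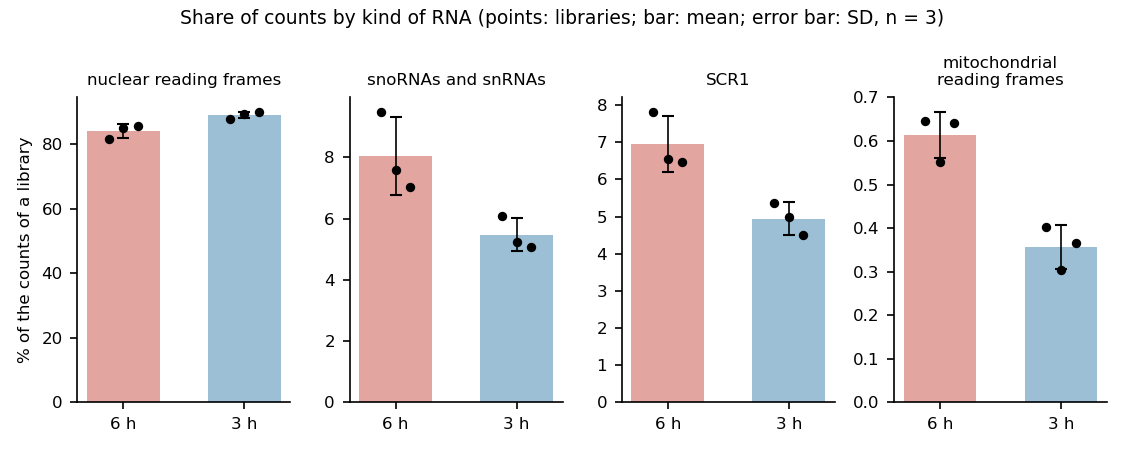
Share of each library's counts, in percent, taken by nuclear reading frames, snoRNAs and snRNAs, SCR1 and mitochondrial reading frames at 6 h and 3 h, with points for the 3 libraries of a time, bars for the mean and error bars for the SD. Nuclear reading frames averaged 84.0% at 6 h and 89.0% at 3 h, and the other 3 kinds were higher in every 6 h library.

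Among the non-coding and mitochondrial features tested, nearly all calls were rises. Of 74 snoRNAs and snRNAs 20 rose and none fell (median 0.44), and of 16 tRNAs 4 rose and 1 fell, shares of rises near the 21.0% of all tested features. Of 19 mitochondrial reading frames 9 rose and none fell (median 0.75). The U1 snRNA, snR19, had 6536, 4099 and 4023 CPM at 6 h, against 3135, 2738 and 2376 CPM at 3 h. Replicate 1 was far above the other 6 h libraries. COX1, subunit 1 of cytochrome oxidase encoded in the mitochondrial genome, had 282, 221 and 267 CPM at 6 h, against 140, 111 and 135 CPM at 3 h, and it overlaps its own intron-encoded frames, so reads could be split among them. The mitochondrial 15S rRNA had 59.6, 51.5 and 80.9 CPM at 6 h, against 37.7, 33.3 and 32.6 CPM at 3 h, with a log2 change of 0.89 ± 0.22. Mitochondrial frames took 0.647%, 0.552% and 0.641% of the counts at 6 h, against 0.402%, 0.303% and 0.365% at 3 h.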

How the data were processed

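The authors' deposited table holds raw read counts per feature for 12 libraries of total RNA depleted of rRNA (Ribo-Zero Gold, TruSeq stranded kit, per the labels' protocols). STAR 2.5.2b, featureCounts 1.5.1 and build R64 are named in the submitters' processing notes, and neither the strand setting nor the annotation release is given there. The counts were tested with edgeR 4.0.16 (quasi-likelihood, robust, TMM factors, filterByExpr) over all 12 libraries, with 8 residual degrees of freedom and Benjamini-Hochberg adjustment over 5615 features, and 601 features were too low to test. CPM used TMM-adjusted library totals, and the standard error (SE) of a fold change was taken from the F statistic, as its log2 size over the square root of F. The common dispersion gave a biological coefficient of variation of 8.68%. On simulated counts with 200 changed features of 5590, the 6 h against 3 h test recovered 81.8%, 91.0% and 97.0% of changes of 1.5-fold, 2-fold and 4-fold. Of its calls 4.79% were false. The simulated counts were drawn independently for each feature, without shifts across a whole library such as that of 6 h replicate 1. They also held far fewer changed features than the 42.7% of tested features called in the real data. These shares therefore need not hold for the real libraries. Sequences were read from the R64 reference, over 300 bases before the start codon, and the 100 bases nearest to it are not printed. Near copies are genes with at least 95% identity over 50% of the length (blastn 2.17.0). Groups came from the labels. The genes named were the largest changes in the table, by class, by RNA kind and by list, with exceptions. NOP7 and BRX1 were named after their values were seen, and the strain's marker genes, such as ASG7, were named whatever their change. The members and the 51 gene lists were chosen with earlier results of these data known. Alternatives tried were other scalings, other filters, the 6 libraries alone, a replicate block, DESeq2 1.42.0 and leaving out each 6 h and 3 h library, and leaving out 0 h replicate 3 was added after seeing the data.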

Additional observations from a re-analysis of the deposited data

How the results depend on the processing

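The numbers of rises and falls stayed within 1.5 times 1177 and 1219 under every alternative run, with rises from 854 without 6 h replicate 1, and falls from 930 without 3 h replicate 3, up to 1406 and 1452 without 0 h replicate 3. Scaling by library totals alone gave 965 rises and 1348 falls, so that 41.7% of calls were rises in place of 49.1%. The same scaling moved the classes most: 287 late rises, 615 rises and 215 falls that deepened, and 63 rises and 812 falls that turned back. When libraries were left out in turn, late rises ranged from 366 to 633, rises that turned back from 117 to 404 and falls that turned back from 133 to 369, the highest of each without 0 h replicate 3, an alternative chosen after seeing the data. The cause was not tested. DESeq2 called 1069 rises and 1231 falls. Deviations of same-numbered 6 h and 3 h libraries correlated at 0.46, 0.02 and 0.42. Whether the replicate numbers pair the libraries is not settled by these values, and the main fit had no term for replicate. A fit with a replicate block gave 1402 rises and 1398 falls. Its ribosome biogenesis falls held 33 late starts, 14 that deepened and 26 that turned back. Of the 228 named genes, 193 kept their side of the threshold and their direction in every setting in which they were tested. ASG7, which did not pass the test, ranged from -0.271 to 0.0917 on the log2 scale when libraries were left out and was above 0 without 6 h replicate 2, 3 h replicate 1 or 3 h replicate 2. With 3 libraries against 3, an exact test of 1 value cannot go below 0.1, and low genes such as PAU2 rest on few counts.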
